A study of Homo sapiens with 4 samples.

Results

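The genes of DNA replication and mitosis were taken as a list of 55 symbols, of which 27 serve replication and 28 serve mitosis, and each was looked up by symbol among the 18398 RefSeq transcripts measured. In all, 54 of the 55 were found, 26 replication genes and 28 mitosis genes, and UHRF1, a reader of DNA methylation at the fork, was not analysed here. RNA sequencing had been done on the hepatocellular carcinoma lines Huh7 and Huh1, which are established human liver cancer cell lines, each transfected with an siRNA against ODC1 or with a negative control (NC) siRNA. The 4 groups, Huh7 with ODC1 siRNA, Huh7 with NC siRNA, Huh1 with ODC1 siRNA and Huh1 with NC siRNA, had 1 library each, and no label gives the siRNA sequence, the dose or the time after transfection. ODC1 encodes ornithine decarboxylase, the enzyme that makes putrescine and so opens the synthesis of the polyamines. The comparisons ask how ODC1 siRNA and the line relate to the transcripts with which a cell copies its DNA and divides.

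Before S phase, the origin recognition complex (ORC1), CDC6 and CDT1 load the MCM helicase onto origins, and geminin (GMNN) holds CDT1 in check once replication has begun. CDC45 and the GINS complex turn the loaded helicase into an active fork, where polymerases, the sliding clamp PCNA, its loader RFC and the flap nuclease FEN1 work. Cyclin B with CDK1 then drives entry into mitosis, the spindle checkpoint delays separation until every chromosome is attached, and CDC20 with the anaphase-promoting complex ends the delay. Transcription of the replication genes is known to depend largely on E2F factors, and that of the mitosis genes on FOXM1, B-MYB and the DREAM complex, which binds a cell cycle homology region (CHR) in their promoters.

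The values were RPKM, reads scaled to the length of the transcript and the mapped reads of the library, from libraries of 10215332 to 13384836 reads, and in each line the ODC1 siRNA library was the shallower one. ODC1 itself stood at 7.501 RPKM with ODC1 siRNA and 166.9 RPKM with NC siRNA in Huh7, and at 25.01 RPKM with ODC1 siRNA and 103.4 RPKM with NC siRNA in Huh1, so the target transcript was lower in both ODC1 siRNA libraries. All 11 hepatocyte markers reached 1 RPKM in some library, with summed levels of 2676 RPKM (ODC1 siRNA) and 3368 RPKM (NC siRNA) in Huh7 and of 4762 RPKM (ODC1 siRNA) and 5429 RPKM (NC siRNA) in Huh1. None of the 3 endothelial markers found and 1 of 5 blood markers, LYZ, reached 1 RPKM. Of 5 fibroblast markers, 4 reached 1 RPKM, and their summed level was 370.0 RPKM (ODC1 siRNA) and 283.4 RPKM (NC siRNA) in Huh7 against 15.7 RPKM (ODC1 siRNA) and 12.1 RPKM (NC siRNA) in Huh1. The part of these marker differences in the results below was not tested.

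Every member was expressed in every library, and all 54 entered the tests. The replication genes ran between 11.3 and 162.3 RPKM in Huh7 with ODC1 siRNA, between 11.6 and 194.0 RPKM in Huh7 with NC siRNA, between 5.83 and 154.4 RPKM in Huh1 with ODC1 siRNA and between 6.09 and 154.7 RPKM in Huh1 with NC siRNA. The mitosis genes ran between 12.1 and 186.6 RPKM, 12.9 and 209.0 RPKM, 5.36 and 85.6 RPKM, and 5.95 and 86.1 RPKM in the same 4 libraries. PCNA and the helicase subunits MCM7 and MCM3 were the highest replication genes in every library, and POLA1, CDC25C and CENPE were among the lowest members, as the plot of levels shows.

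**Figure D1:**
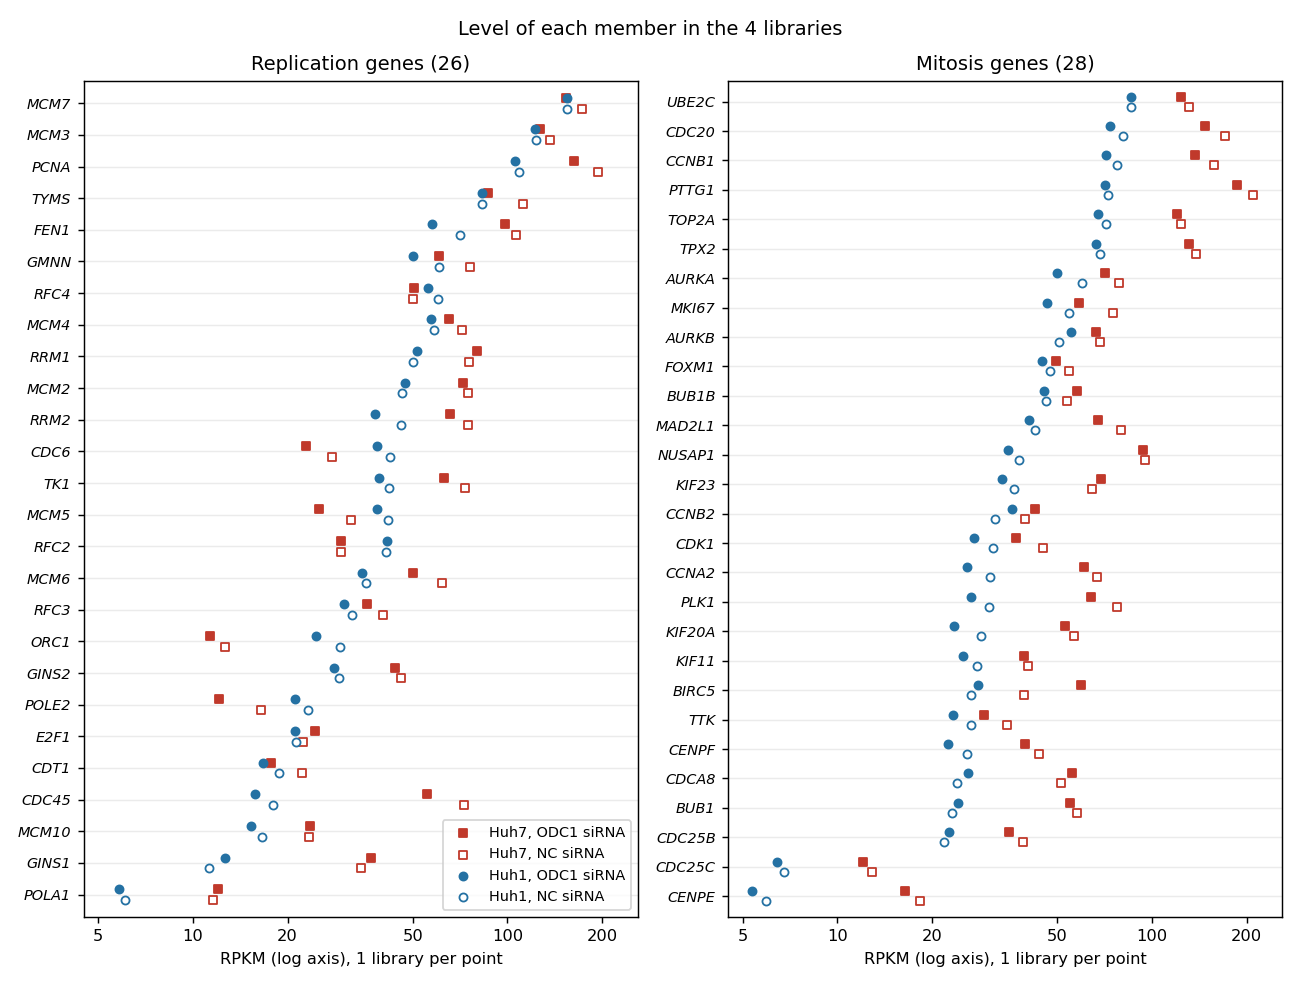
Level of each of the 54 members in RPKM on a log axis, 1 point per library, with replication genes on the left and mitosis genes on the right, ordered by their level in Huh1 with NC siRNA. Filled points are ODC1 siRNA and open points NC siRNA; squares are Huh7 and circles Huh1. All 28 mitosis genes have their Huh7 squares to the right of the Huh1 circle of the same siRNA. With both siRNAs, 6 replication genes lie the other way: ORC1, CDC6, MCM5, POLE2, RFC2 and RFC4.

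The words known for each class stood in a larger share of that class's promoters than of all promoters, though most replication windows held no E2F word. Both classes are of genes known to depend on such factors, so this is not an independent result. RefSeq promoters (GRCh38.p14), each a window of 250 bases before to 50 bases after a transcript start, were matched by symbol for 24 replication genes (32 windows) and 22 mitosis genes (31 windows), and both strands were searched. An E2F word, TTTCGCGC or TTTGGCGC, stood in 10 of 32 replication windows (31.2%) and in 3 of 31 mitosis windows (9.68%), against 1.15% of all 35116 promoters and 1.74% of the 13073 promoters of the genes tested. A CHR word, TTTGAA or TTCGAA, stood in 18 of 31 mitosis windows (58.1%) and in 2 of 32 replication windows (6.25%), against 16.4% of all promoters and 12.2% of those of the genes tested. The word CCAAT, bound by NF-Y, stood in 80.6% of the mitosis windows and 65.6% of the replication windows, against 34.6% of all promoters and 34.8% of those of the genes tested. Median GC content was 66.7% in the replication windows and 61.3% in the mitosis windows, against 58.7% over all promoters and 64.3% in those of the genes tested, and a match is a match of letters, not a measured site. The siRNA response, described below, was set beside the words. The 10 replication genes with an E2F word had a median log2 fold change over both lines of -0.07 and the 14 without one of -0.15, and the 16 mitosis genes with a CHR word had -0.07 and the 6 without one -0.15. By the CCAAT word, the medians were -0.09 in the 20 mitosis genes with it and -0.05 in the 2 without it, and -0.12 in the 16 replication genes with it and -0.16 in the 8 without it.

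The 150 bases before the most upstream start of 4 replication genes follow, shown because they hold the E2F words, with E2F words on either strand in capitals. In MCM6 the capitals in the middle are a pair of overlapping words, one on each strand, and MCM6 had the most E2F matches in 1 window among the matched members.
MCM6 promoter, chr2:135876444-135876593, minus strand: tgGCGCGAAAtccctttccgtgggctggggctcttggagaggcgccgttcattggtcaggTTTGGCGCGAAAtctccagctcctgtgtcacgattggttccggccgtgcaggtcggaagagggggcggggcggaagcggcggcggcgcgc
MCM7 promoter, chr7:100101398-100101547, minus strand: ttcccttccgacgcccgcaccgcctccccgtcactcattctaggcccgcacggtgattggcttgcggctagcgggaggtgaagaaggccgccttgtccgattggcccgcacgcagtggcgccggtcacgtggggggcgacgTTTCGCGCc
E2F1 promoter, chr20:33686386-33686535, minus strand: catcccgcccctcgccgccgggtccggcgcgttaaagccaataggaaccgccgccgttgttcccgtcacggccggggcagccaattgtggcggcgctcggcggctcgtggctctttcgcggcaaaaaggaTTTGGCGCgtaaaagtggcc
POLA1 promoter, chrX:24693768-24693917, plus strand: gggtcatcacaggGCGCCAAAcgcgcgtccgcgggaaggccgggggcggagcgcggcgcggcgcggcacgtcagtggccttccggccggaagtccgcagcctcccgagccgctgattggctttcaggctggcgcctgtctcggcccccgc

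The same stretch of 4 mitosis genes shows the arrangement of CHR and CCAAT words, both in capitals. The CHR word starts 29 bases before the start site in both PLK1 and CCNB2, and the 2nd CHR word of MKI67 also starts there and overlaps a CCAAT word read on the other strand. In the bases shown, CCNB2 has 3 CCAAT words upstream of its CHR word, the farthest 120 bases and the nearest 54 bases before the start.
MKI67 promoter, chr10:128126424-128126573, minus strand: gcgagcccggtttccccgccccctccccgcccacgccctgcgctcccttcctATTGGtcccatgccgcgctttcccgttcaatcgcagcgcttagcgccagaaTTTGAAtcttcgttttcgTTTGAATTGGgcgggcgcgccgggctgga
PLK1 promoter, chr16:23678739-23678888, plus strand: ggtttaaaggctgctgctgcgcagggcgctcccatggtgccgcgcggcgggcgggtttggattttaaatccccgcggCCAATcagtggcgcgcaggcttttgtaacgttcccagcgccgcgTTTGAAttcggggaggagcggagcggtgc
CDC20 promoter, chr1:43358831-43358980, plus strand: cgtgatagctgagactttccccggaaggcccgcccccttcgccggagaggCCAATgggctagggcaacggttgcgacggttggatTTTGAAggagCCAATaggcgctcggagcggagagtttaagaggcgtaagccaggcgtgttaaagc
CCNB2 promoter, chr15:59104996-59105145, plus strand: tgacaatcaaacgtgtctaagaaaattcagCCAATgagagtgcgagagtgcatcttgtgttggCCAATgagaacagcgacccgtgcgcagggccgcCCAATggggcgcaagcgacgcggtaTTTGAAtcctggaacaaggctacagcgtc

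**Figure D2:**
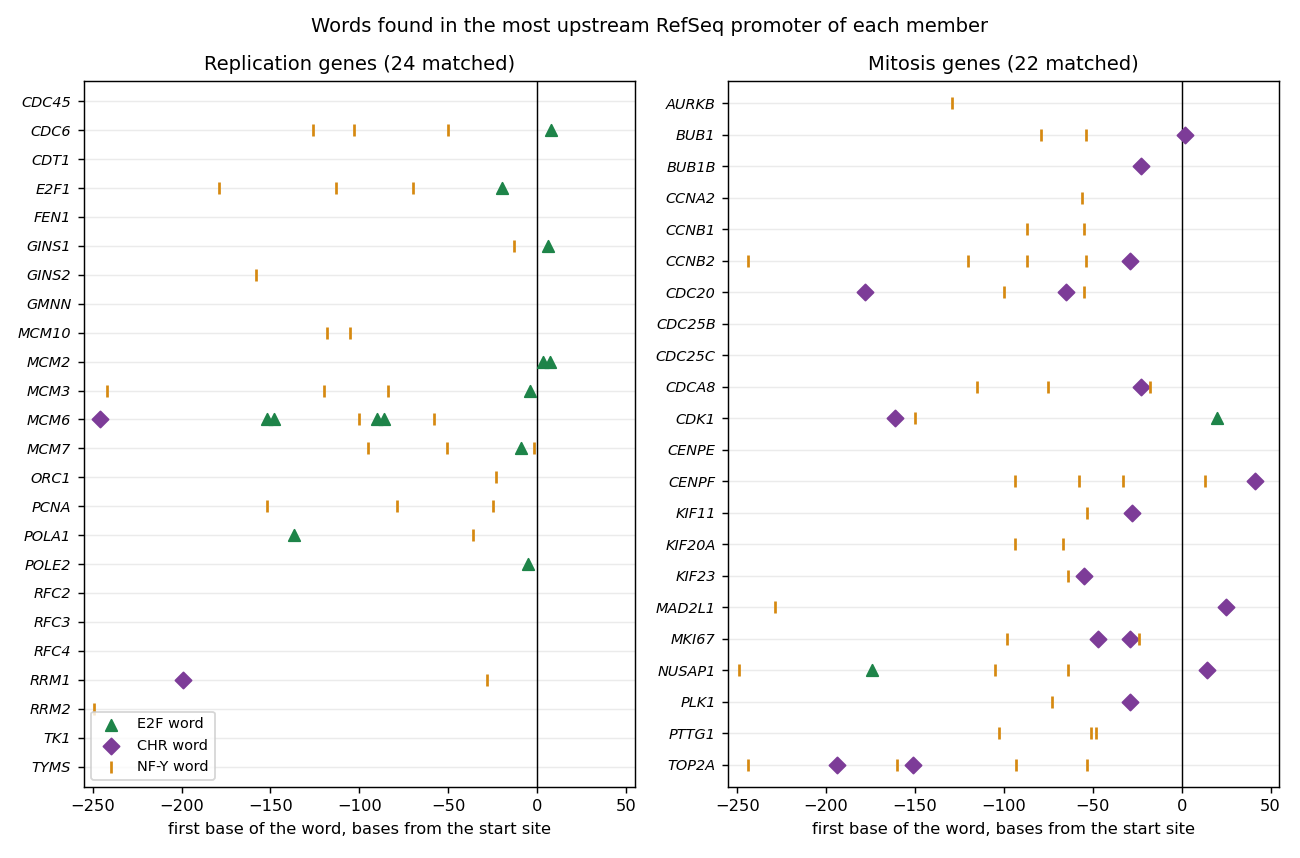
Position of E2F, CHR and NF-Y words in the most upstream RefSeq promoter of each matched member, in bases from the start site (black line at 0), from 250 bases before to 50 bases after. Triangles (E2F) lie almost all in the replication panel, diamonds (CHR) almost all in the mitosis panel, and bars (NF-Y) in both.

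With ODC1 siRNA most replication and mitosis genes stood slightly lower than with NC siRNA in both lines, and no single member passed the test over both lines. In these bulk samples, fewer dividing cells and less RNA per cell cannot be told apart. On log2(RPKM + 1), limma with line and siRNA as terms called 0 of 26 replication genes and 0 of 28 mitosis genes at an adjusted p of 0.05, with Benjamini-Hochberg adjustment over all 12039 genes that reached 1 RPKM in some library. Over all those genes it called 1.5% higher and 0.615% lower. At an unadjusted p of 0.05, 0 replication genes were higher and 8 lower, and 1 mitosis gene was higher and 9 lower, against 10.7% higher and 8.25% lower over all genes. Within a line there is 1 library per siRNA and so no test. As a rule of size, 0 members differed 1.5-fold in Huh7, where 2.53% of 11416 genes did upward and 3.16% downward, and 0 did in Huh1, where 1.01% of 10912 genes did upward and 0.367% downward.

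Over both lines, 22 of 26 replication genes and 23 of 28 mitosis genes had a mean log2 fold change below 0, against 48.5% of all genes. In Huh7 the counts were 20 of 26 and 23 of 28, against 50.3% of all genes, and in Huh1 they were 22 of 26 and 22 of 28, against 45% of all genes. The median log2 fold change in Huh7 was -0.15 for the replication genes and -0.12 for the mitosis genes. In Huh1 the medians were -0.07 for the replication genes and -0.10 for the mitosis genes, while over all genes they were -0.002 in Huh7 and 0.02 in Huh1. The median of the replication genes minus that of the mitosis genes was -0.04 in Huh7 and 0.03 in Huh1. The order of the classes was thus not the same in the lines, and this difference was not tested. With quantile normalization the values were -0.02 in Huh7 and 0.008 in Huh1, so the order in Huh1 rests on a very small gap.

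The members had between 154 and 11601 estimated reads in a library, and counting error was not small beside many of their differences. For the 52 members with a transcript length, 95% counting intervals of the ratio of ODC1 to NC siRNA, which cover counting error only, lay wholly below 1 for 31 members in Huh7 and wholly above 1 for 5. Over all genes with an interval, 23.3% lay below and 23.8% above in Huh7. In Huh1 the intervals lay below 1 for 19 members and above 1 for 1 member, against 14.5% below and 20.1% above over all genes. Among genes with at least 5 RPKM the Huh1 shares were 17.1% below and 22.3% above. Such intervals compare 2 libraries and hold no spread between cultures.

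**Figure D3:**
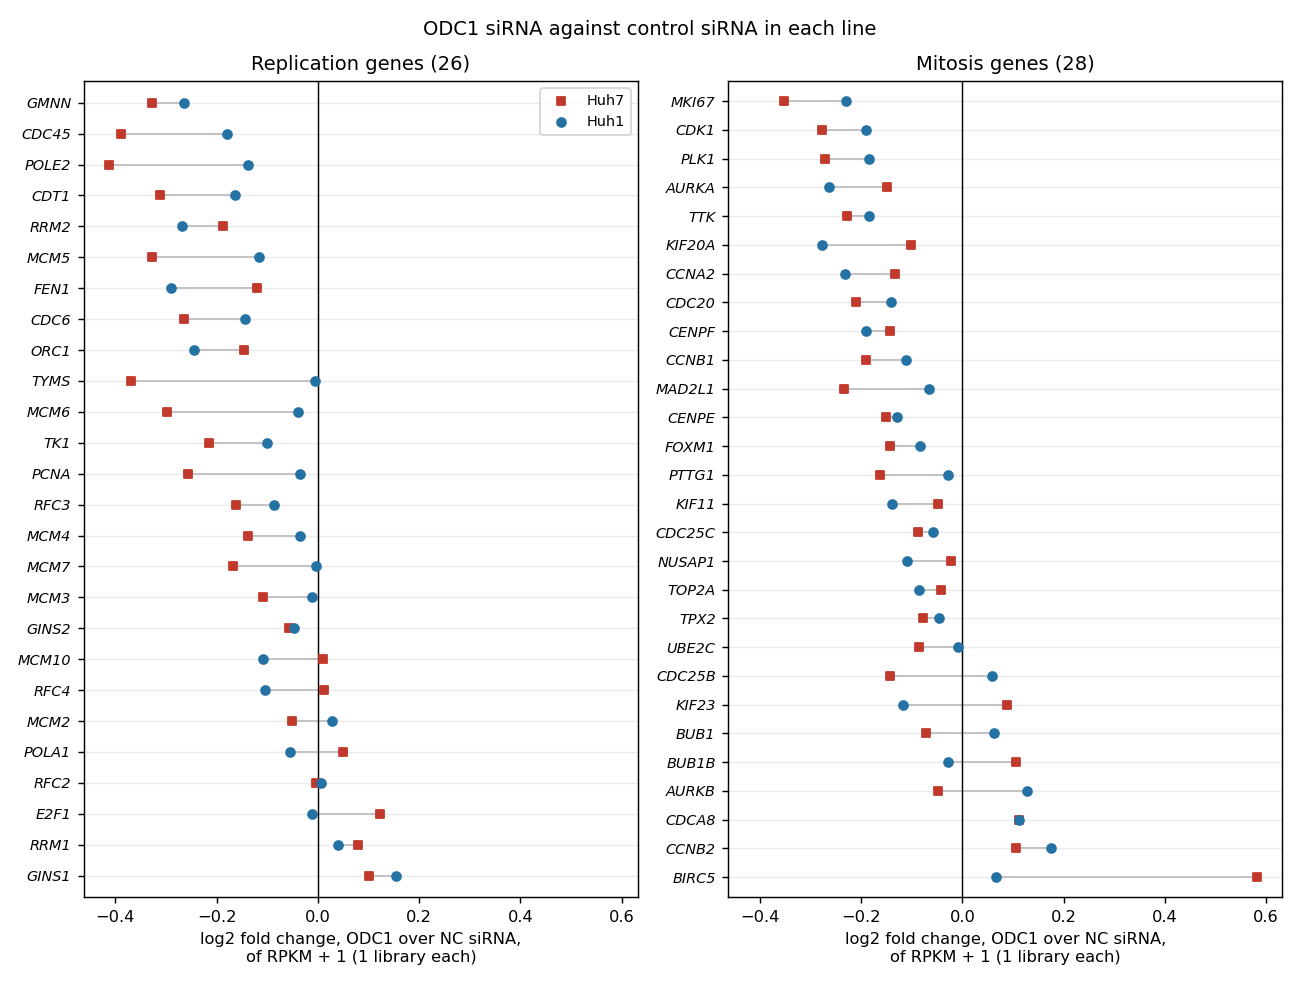
log2 fold change of RPKM + 1, ODC1 over NC siRNA, for each member in Huh7 (squares) and Huh1 (circles), 1 library per siRNA and line, ordered by the mean of the lines. Most points lie left of 0, 22 of 26 replication genes and 23 of 28 mitosis genes have a mean below 0, and BIRC5 in Huh7 stands far to the right at 0.58.

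Among the licensing genes all 10 had a mean log2 fold change below 0, with a median of -0.18. Geminin, the inhibitor of CDT1, had the lowest adjusted p of all members. GMNN stood at 60.6 RPKM with ODC1 siRNA and 76.2 RPKM with NC siRNA in Huh7, and at 50.1 RPKM with ODC1 siRNA and 60.4 RPKM with NC siRNA in Huh1. Its log2 fold change over both lines was -0.30 ± 0.07 (SE, limma adjusted p = 0.0732). Both ODC1 siRNA libraries were thus below the NC library of their line, and the Huh7 library with ODC1 siRNA was level with the Huh1 library with NC siRNA. CDT1, the loading factor that geminin binds, stood at 17.7 RPKM with ODC1 siRNA and 22.1 RPKM with NC siRNA in Huh7, and at 16.7 RPKM with ODC1 siRNA and 18.8 RPKM with NC siRNA in Huh1 (log2 fold change -0.24, limma adjusted p = 0.205). With both lower, the ratio of CDT1 to GMNN in RPKM was close between the siRNAs, at 0.291 (ODC1 siRNA) and 0.290 (NC siRNA) in Huh7 and at 0.333 (ODC1 siRNA) and 0.312 (NC siRNA) in Huh1.

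The 6 subunits of the MCM helicase had mean log2 fold changes between -0.22 and -0.01, and differences between them were not tested. MCM5 stood at 25.1 RPKM with ODC1 siRNA and 31.8 RPKM with NC siRNA in Huh7, and at 38.4 RPKM with ODC1 siRNA and 41.7 RPKM with NC siRNA in Huh1 (log2 fold change over both lines -0.22, limma adjusted p = 0.211). MCM6 stood at 50.04 RPKM with ODC1 siRNA and 61.7 RPKM with NC siRNA in Huh7, and at 34.5 RPKM with ODC1 siRNA and 35.4 RPKM with NC siRNA in Huh1, a gap seen mainly in Huh7 (log2 fold changes of -0.30 and -0.04). MCM2, MCM3, MCM4 and MCM7 had log2 fold changes between -0.17 and -0.05 in Huh7 and between -0.04 and 0.03 in Huh1. The subunits join in 1 ring, and the ratio of MCM7 to MCM5 in RPKM was 6.11 (ODC1 siRNA) and 5.43 (NC siRNA) in Huh7 and 4.02 (ODC1 siRNA) and 3.71 (NC siRNA) in Huh1. CDC6, which loads the ring, stood at 22.9 RPKM with ODC1 siRNA and 27.7 RPKM with NC siRNA in Huh7, and at 38.4 RPKM with ODC1 siRNA and 42.5 RPKM with NC siRNA in Huh1 (log2 fold change -0.20, limma adjusted p = 0.223). ORC1 was the lowest licensing gene in Huh7, with 11.3 RPKM (ODC1 siRNA) and 12.6 RPKM (NC siRNA) there and 24.6 RPKM (ODC1 siRNA) and 29.3 RPKM (NC siRNA) in Huh1.

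At the fork, 9 of 11 genes had a mean log2 fold change below 0, with a median of -0.05. CDC45, which activates the helicase, stood at 55.4 RPKM with ODC1 siRNA and 72.9 RPKM with NC siRNA in Huh7, and at 15.8 RPKM with ODC1 siRNA and 18.0 RPKM with NC siRNA in Huh1. Its log2 fold change over both lines was -0.28 ± 0.09 (SE, limma adjusted p = 0.128). POLE2, a subunit of the leading strand polymerase, had the largest negative log2 fold change of any member in Huh7, -0.41, with 12.1 RPKM (ODC1 siRNA) and 16.4 RPKM (NC siRNA), and -0.14 in Huh1, with 21.1 RPKM (ODC1 siRNA) and 23.3 RPKM (NC siRNA). FEN1, the nuclease that trims Okazaki fragments, had the larger gap in Huh1, with 57.7 RPKM (ODC1 siRNA) and 70.8 RPKM (NC siRNA), than in Huh7, with 97.9 RPKM (ODC1 siRNA) and 106.5 RPKM (NC siRNA). PCNA, the clamp that holds the polymerase on DNA, stood at 162.3 RPKM with ODC1 siRNA and 194.0 RPKM with NC siRNA in Huh7, and at 106.0 RPKM with ODC1 siRNA and 108.6 RPKM with NC siRNA in Huh1, so its log2 fold change was -0.26 in Huh7 and -0.03 in Huh1. Of the GINS subunits, GINS1 had 36.8 RPKM (ODC1 siRNA) and 34.3 RPKM (NC siRNA) in Huh7 and 12.6 RPKM (ODC1 siRNA) and 11.3 RPKM (NC siRNA) in Huh1, while GINS2 had log2 fold changes of -0.06 in Huh7 and -0.05 in Huh1. The clamp loader subunits RFC2, RFC3 and RFC4 had log2 fold changes over both lines between -0.12 and 0.00.

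Of the 5 nucleotide supply and S-phase genes, 3 had a mean below 0. RRM2, the subunit of ribonucleotide reductase made in S phase, stood at 65.9 RPKM with ODC1 siRNA and 75.1 RPKM with NC siRNA in Huh7, and at 37.9 RPKM with ODC1 siRNA and 45.9 RPKM with NC siRNA in Huh1 (log2 fold change -0.23, limma adjusted p = 0.145). Its partner RRM1, the large subunit, stood higher with ODC1 siRNA in both lines, at 79.9 RPKM against 75.6 RPKM with NC siRNA in Huh7 and at 51.6 RPKM against 50.1 RPKM with NC siRNA in Huh1. TYMS, which makes thymidylate, stood at 86.8 RPKM with ODC1 siRNA and 112.4 RPKM with NC siRNA in Huh7, and at 82.9 RPKM with ODC1 siRNA and 83.2 RPKM with NC siRNA in Huh1, a log2 fold change of -0.37 in Huh7 and of -0.00 in Huh1. TK1, the salvage enzyme for thymidine, had log2 fold changes of -0.21 in Huh7 and -0.10 in Huh1. E2F1, a factor that drives this group, stood at 24.4 RPKM with ODC1 siRNA and 22.3 RPKM with NC siRNA in Huh7, and at 21.1 RPKM with ODC1 siRNA and 21.3 RPKM with NC siRNA in Huh1 (log2 fold change 0.06, limma adjusted p = 0.770), so its own transcript was not among the lower ones.

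Among the mitosis genes the proliferation marker MKI67, which coats mitotic chromosomes, had the lowest adjusted p. MKI67 stood at 58.6 RPKM with ODC1 siRNA and 75.02 RPKM with NC siRNA in Huh7, and at 46.5 RPKM with ODC1 siRNA and 54.7 RPKM with NC siRNA in Huh1. Its log2 fold change over both lines was -0.29 ± 0.07 (SE, limma adjusted p = 0.0847), and the RPKM ratio was 0.781 in Huh7 and 0.850 in Huh1. TOP2A, which untangles sister chromatids, is another common proliferation marker and stood at 120.2 RPKM with ODC1 siRNA and 123.8 RPKM with NC siRNA in Huh7, and at 67.4 RPKM with ODC1 siRNA and 71.5 RPKM with NC siRNA in Huh1 (log2 fold change -0.06, limma adjusted p = 0.650). The markers therefore differed in the size of their values, and neither passed the test.

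Of the 10 cyclins, kinases and regulators, 8 had a mean below 0, with a median of -0.13. CDK1, the kinase of mitotic entry, stood at 37.0 RPKM with ODC1 siRNA and 45.1 RPKM with NC siRNA in Huh7, and at 27.2 RPKM with ODC1 siRNA and 31.2 RPKM with NC siRNA in Huh1 (log2 fold change -0.23, limma adjusted p = 0.163). PLK1, the polo kinase of entry and spindle assembly, stood at 64.2 RPKM with ODC1 siRNA and 77.7 RPKM with NC siRNA in Huh7, and at 26.7 RPKM with ODC1 siRNA and 30.4 RPKM with NC siRNA in Huh1 (log2 fold change -0.23, limma adjusted p = 0.155). AURKA, the centrosomal Aurora kinase, was lower with ODC1 siRNA in both lines, at 70.7 RPKM against 78.5 RPKM with NC siRNA in Huh7 and at 49.8 RPKM against 59.9 RPKM with NC siRNA in Huh1. AURKB, the Aurora kinase of the chromosomal passenger complex, was on opposite sides of its NC library, at 66.2 RPKM (ODC1 siRNA) and 68.5 RPKM (NC siRNA) in Huh7 and at 55.3 RPKM (ODC1 siRNA) and 50.6 RPKM (NC siRNA) in Huh1.

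The values of the cyclins lay on both sides of 0. CCNA2, the cyclin of S phase and early mitosis, stood at 60.9 RPKM with ODC1 siRNA and 66.9 RPKM with NC siRNA in Huh7, and at 25.8 RPKM with ODC1 siRNA and 30.5 RPKM with NC siRNA in Huh1. CCNB1, the main mitotic cyclin, stood at 137.5 RPKM with ODC1 siRNA and 157.1 RPKM with NC siRNA in Huh7, and at 71.7 RPKM with ODC1 siRNA and 77.5 RPKM with NC siRNA in Huh1 (log2 fold change -0.15, limma adjusted p = 0.261). CCNB2 stood higher with ODC1 siRNA in both lines, at 42.5 RPKM against 39.4 RPKM with NC siRNA in Huh7 and at 36.0 RPKM against 31.8 RPKM with NC siRNA in Huh1 (log2 fold change 0.14, limma adjusted p = 0.365). The ratio of CCNB1 to CCNB2 in RPKM was therefore lower with ODC1 siRNA, at 3.24 against 3.99 with NC siRNA in Huh7 and at 1.99 against 2.44 with NC siRNA in Huh1. FOXM1, the factor behind many mitosis genes, stood at 49.4 RPKM with ODC1 siRNA and 54.7 RPKM with NC siRNA in Huh7, and at 44.7 RPKM with ODC1 siRNA and 47.4 RPKM with NC siRNA in Huh1 (log2 fold change -0.11, limma adjusted p = 0.444). CDC25B, a phosphatase that activates CDK1, stood at 35.2 RPKM with ODC1 siRNA and 38.9 RPKM with NC siRNA in Huh7, and at 22.7 RPKM with ODC1 siRNA and 21.8 RPKM with NC siRNA in Huh1.

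Of the 7 checkpoint and anaphase genes, 6 had a mean below 0. TTK, the kinase that starts the spindle checkpoint, stood at 29.3 RPKM with ODC1 siRNA and 34.5 RPKM with NC siRNA in Huh7, and at 23.3 RPKM with ODC1 siRNA and 26.6 RPKM with NC siRNA in Huh1 (log2 fold change -0.21, limma adjusted p = 0.217). CDC20, the activator of the anaphase-promoting complex, had log2 fold changes of -0.21 in Huh7 and -0.14 in Huh1, while its partner enzyme UBE2C had -0.09 and -0.01 in the same lines. BUB1B, a checkpoint protein that binds CDC20, had 0.11 in Huh7 and -0.03 in Huh1.

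All 7 genes of the centromere, spindle and motors had a mean below 0, between -0.19 and -0.01. KIF20A, a kinesin of cytokinesis, stood at 52.8 RPKM with ODC1 siRNA and 56.7 RPKM with NC siRNA in Huh7, and at 23.5 RPKM with ODC1 siRNA and 28.7 RPKM with NC siRNA in Huh1 (log2 fold change -0.19, limma adjusted p = 0.255). CENPF, a kinetochore protein, had log2 fold changes of -0.14 in Huh7 and -0.19 in Huh1. KIF23, another kinesin of cytokinesis, was on opposite sides of its NC library in the lines, at 68.7 RPKM (ODC1 siRNA) and 64.5 RPKM (NC siRNA) in Huh7 and at 33.4 RPKM (ODC1 siRNA) and 36.3 RPKM (NC siRNA) in Huh1.

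BIRC5, which encodes survivin of the chromosomal passenger complex, had the largest value of any member in either direction. It stood at 59.4 RPKM with ODC1 siRNA and 39.3 RPKM with NC siRNA in Huh7, an RPKM ratio of 1.51 with a 95% counting interval of 1.40 to 1.63, and its log2 fold change of 0.58 on the log2(RPKM + 1) scale fell just short of 1.5-fold. In Huh1 it stood at 27.9 RPKM with ODC1 siRNA and 26.6 RPKM with NC siRNA, a ratio of 1.05 with an interval of 0.955 to 1.15. Over both lines BIRC5 did not pass the test (log2 fold change 0.32 ± 0.12 SE, limma adjusted p = 0.186). CDCA8, its partner in the same complex, had ratios of 1.08 in Huh7 and 1.08 in Huh1, while the scaffold INCENP had a log2 fold change of -0.01 over both lines.

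Across the lines, 38 members stood below 0 in both, 5 stood above 0 in both (GINS1, RRM1, CCNB2, BIRC5 and CDCA8) and 11 took opposite signs. Such signs in both lines were not counted over all genes, of which 50.3% in Huh7 and 45% in Huh1 lay below 0. The log2 fold change was lower in Huh7 than in Huh1 for 35 of 54 members, 18 replication genes and 17 mitosis genes. This was not counted over all genes, whose median was also lower in Huh7 (-0.002) than in Huh1 (0.02). In Huh7, ODC1 RNA was also the lower of the ODC1 siRNA libraries, and the part of this in the members' values was not tested. Pearson's r between the log2 fold changes of the lines was 0.51 across the 54 members (Spearman's rho 0.51) and 0.446 across all 12039 genes (rho 0.424). Both describe genes within 4 libraries, and genes are not independent replicates. TYMS, POLE2, PCNA and MCM6 were the replication genes farthest apart in the lines, each lower in Huh7.

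**Figure D4:**
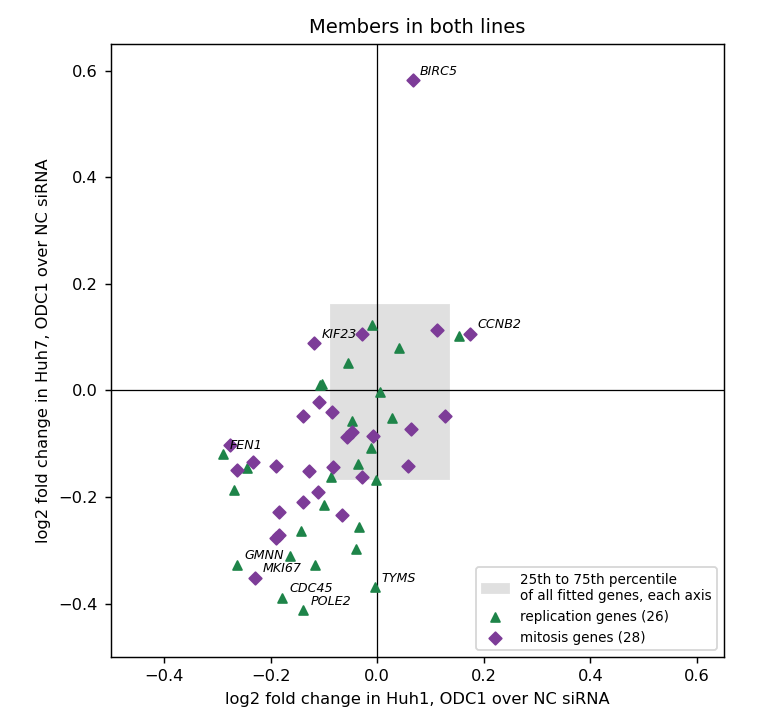
log2 fold change of each member, ODC1 over NC siRNA, in Huh1 (horizontal axis) and Huh7 (vertical axis), with triangles for replication and diamonds for mitosis genes. The grey box spans the 25th to the 75th percentile of all genes tested on each axis. In all, 38 of 54 members lie left of and below 0, a count not made over all genes, and BIRC5 lies alone at the top.

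The other genes of these pathways gave few calls. Of 43 further replication genes tested, 1 rose and 1 fell, near the 1.5% and 0.615% of all genes, with a median log2 fold change of -0.10 and 29 below 0, against 48.5% of all genes. CCNE1, the cyclin that opens S phase, fell to 8.35 RPKM with ODC1 siRNA, against 14.0 RPKM with NC siRNA, in Huh7, and to 3.17 RPKM with ODC1 siRNA, against 4.80 RPKM with NC siRNA, in Huh1 (log2 fold change -0.58 ± 0.11 SE, limma adjusted p = 0.0449). POLD4, the small subunit of the lagging strand polymerase, rose to 41.3 RPKM with ODC1 siRNA, against 31.7 RPKM with NC siRNA, in Huh7, and to 24.9 RPKM with ODC1 siRNA, against 16.9 RPKM with NC siRNA, in Huh1 (log2 fold change 0.45 ± 0.09 SE, limma adjusted p = 0.0403). Both calls were lost under 7 of the 8 other settings. LIG1, the ligase that seals Okazaki fragments, stood at 18.5 RPKM with ODC1 siRNA and 26.6 RPKM with NC siRNA in Huh7, and at 24.2 RPKM with ODC1 siRNA and 29.3 RPKM with NC siRNA in Huh1, and missed the threshold (log2 fold change -0.38, limma adjusted p = 0.0736).

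Of 61 further mitosis genes, 0 passed in either direction, near the 1.5% higher and 0.615% lower of all genes. Their median was -0.06 and 40 lay below 0, against 48.5% of all genes. The largest values among these mitosis genes were those of HMMR, a spindle protein (log2 fold change -0.31, limma adjusted p = 0.154), FAM64A (-0.29) and CKAP2 (-0.27). Of 14 repressors and regulators of the cycle, 0 passed, also near those called shares of all genes, with a median of -0.01. RB1, which holds E2F in check, stood at 15.2 RPKM with ODC1 siRNA and 23.0 RPKM with NC siRNA in Huh7, and at 9.89 RPKM with ODC1 siRNA and 12.2 RPKM with NC siRNA in Huh1 (log2 fold change -0.42, limma adjusted p = 0.0783). E2F5, a repressor E2F, had a log2 fold change of -0.41. CDKN1A, the inhibitor p21, stood at 3.45 RPKM with ODC1 siRNA and 3.66 RPKM with NC siRNA in Huh7, and at 8.33 RPKM with ODC1 siRNA and 18.6 RPKM with NC siRNA in Huh1, with log2 fold changes of -0.07 in Huh7 and -1.07 in Huh1 (limma adjusted p = 0.184 over both lines).

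More members passed the test between the lines than between the siRNAs. In the same limma fit, with the siRNA conditions as the repeat of each line, 27 of 28 mitosis genes were higher in Huh7 than in Huh1 and 0 were lower, while 16 of 26 replication genes were higher and 6 were lower, against 43.1% higher and 30.8% lower over all genes. The mean difference was above 0 for 28 of 28 mitosis genes and 20 of 26 replication genes, against 56.7% of all genes. The median log2 difference was 0.81 for the mitosis genes and 0.29 for the replication genes, against 0.13 for all genes. With each siRNA alone the median was 0.82 (ODC1 siRNA) and 0.81 (NC siRNA) for the mitosis genes and 0.25 (ODC1 siRNA) and 0.38 (NC siRNA) for the replication genes. With upper quartile scaling the replication median was 0.192 over both siRNAs and 0.161 with ODC1 siRNA. FOXM1 was the mitosis gene that did not pass, with a log2 difference of 0.17 (limma adjusted p = 0.0580).

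**Figure D5:**
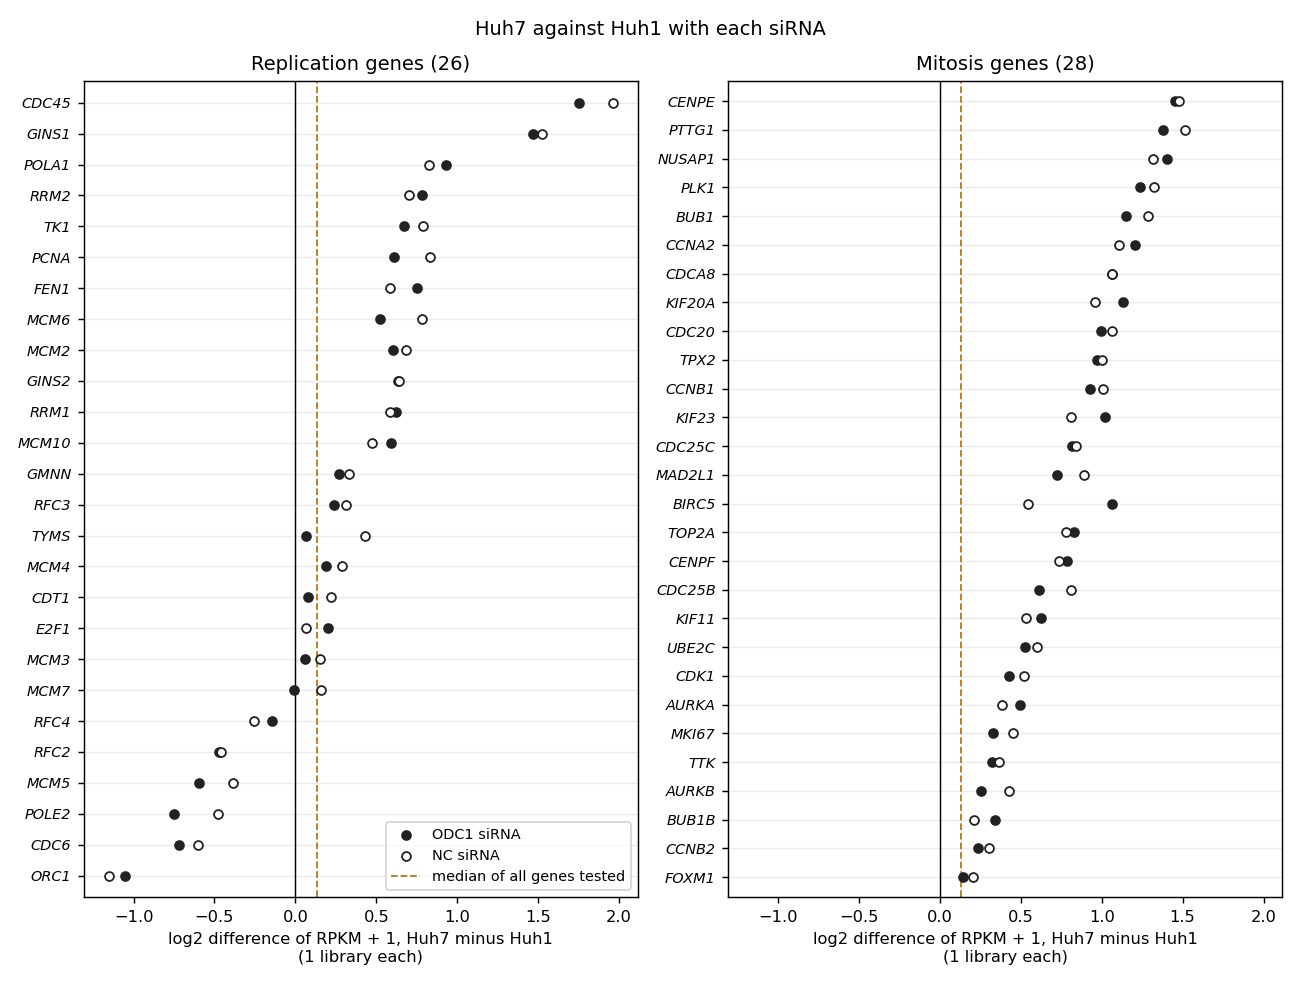
log2 difference of RPKM + 1, Huh7 minus Huh1, for each member with ODC1 siRNA (filled) and with NC siRNA (open), ordered by the mean, with the median of all genes tested, 0.13, as a dashed line. Every mitosis gene lies right of 0 with either siRNA, while the replication genes spread between -1.15 (ORC1) and 1.96 (CDC45).

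Replication genes of both directions stood in both licensing and the fork. Over all genes, 43.1% were higher in Huh7 and 30.8% lower. Of the 10 licensing genes, 4 were higher and 3 lower in Huh7, near those shares, and the 3 were ORC1, CDC6 and MCM5. ORC1 had a log2 difference of -1.10 ± 0.09 (SE, limma adjusted p = 6.74e-06), CDC6 of -0.66 (limma adjusted p = 9.05e-05) and MCM5 of -0.49 (limma adjusted p = 0.000804), and in each both Huh7 libraries were below both Huh1 libraries. Among the 11 fork genes 8 were higher in Huh7, led by CDC45 with 1.86 ± 0.09 (SE, limma adjusted p = 2.31e-07) and GINS1 with 1.497 (limma adjusted p = 8.08e-07), both parts of the active helicase. POLE2 (-0.62), RFC2 (-0.47) and RFC4 (-0.20) were the fork genes that were lower in Huh7. Of the 5 nucleotide supply and S-phase genes 4 were higher in Huh7, RRM2 by 0.74 and TK1 by 0.73, while E2F1 did not pass (0.13, limma adjusted p = 0.194).

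The mitosis genes with the largest line differences came from several roles. PTTG1, the securin that guards sister cohesion, stood at 186.6 RPKM (ODC1 siRNA) and 209.0 RPKM (NC siRNA) in Huh7 against 71.2 RPKM (ODC1 siRNA) and 72.6 RPKM (NC siRNA) in Huh1. CENPE, the kinesin that aligns chromosomes, stood at 16.4 RPKM (ODC1 siRNA) and 18.3 RPKM (NC siRNA) in Huh7 against 5.36 RPKM (ODC1 siRNA) and 5.95 RPKM (NC siRNA) in Huh1. NUSAP1, which bundles spindle microtubules, stood at 93.8 RPKM (ODC1 siRNA) and 95.3 RPKM (NC siRNA) in Huh7 against 34.9 RPKM (ODC1 siRNA) and 37.7 RPKM (NC siRNA) in Huh1. In these and in PLK1 both Huh7 libraries were above both Huh1 libraries, with log2 differences of 1.45 (PTTG1), 1.46 (CENPE), 1.36 (NUSAP1) and 1.28 (PLK1) and limma adjusted p of 2.46e-07, 2.33e-06, 5.25e-07 and 9.52e-07. The smallest differences after FOXM1 were those of CCNB2 (0.27) and BUB1B (0.28).

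Other genes of the same pathways were counted in the same way, beside the 43.1% of all genes that were higher in Huh7 and the 30.8% that were lower. Of 61 further mitosis genes 49 were higher in Huh7 and 5 lower, with a median log2 difference of 0.67. Of 43 further replication genes 17 were higher and 12 lower, with a median of 0.13, which is that of all genes, so these counts lie near the background. The 5 mitosis genes lower in Huh7 were PKMYT1 (-0.97), which inhibits CDK1, HJURP (-0.54), KIF20B (-0.41), SMC2 (-0.29) and ASPM (-0.25), chosen for naming after their values were seen.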

How the data were processed

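The authors deposited 1 table per library with RPKM values per RefSeq transcript and no header. Per the submitters' processing notes, CASAVA 1.8.2 and TopHat2 2.0.9 were used with hg19. The counting program, its use of strand and the annotation were not given in the sources used here. Overlapping genes may therefore share reads. Per the labels' protocols, TruSeq libraries were made from total RNA.

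Values were analysed as log2(RPKM + 1), with a pseudocount of 1 RPKM, so fold changes of low genes are understated. limma 3.58.1 (R 4.3.3) was fitted to the 12039 genes that reached 1 RPKM in a library, with an intensity trend and terms for the line and the siRNA. The fit has 1 residual degree of freedom and a prior of 7.42, so a gene's SE comes mostly from other genes. The gene's own part is how unlike its siRNA difference is in the lines, or equally its line difference with each siRNA. The p-values rest on this and not on spread between cultures. Adjustment followed Benjamini and Hochberg at 0.05. The fit was also run on simulated data in which a changed gene had the same fold in both lines. That run cannot show how well the SE and p-values hold where the lines respond differently. The ODC1 and NC siRNA libraries are paired by line, which enters as the block.

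Depth was estimated from the steps between values under 0.3 RPKM and transcript lengths of GENCODE release 29. Reads behind the intervals (95% Clopper-Pearson, counting error only) are therefore approximate, and CDK1 and UBE2C had no length. Promoters are RefSeq windows of GRCh38.p14.

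The members and lists were chosen with earlier results of these data known. Any member could be named. Values in every library were given for 7 anchors (MKI67, TOP2A, PCNA, E2F1, FOXM1, CDK1 and CCNB1), the 8 members of each class with the largest mean change, the 4 with the largest gap between lines and the 6 with the largest line difference, with a few others added for their role. From the other lists, called genes and the 3 largest changes were taken. Promoters were shown for the largest changes among genes with a word within the 150 bases before the most upstream start. Alternatives were upper quartile scaling, quantile normalization, a pseudocount of 0.1 RPKM, no filter, a filter at 5 RPKM, limma without trend, a trend on counting variance, no line term, no siRNA term, rules of 2-fold and of a log2 fold change of 0.32, and each library left out.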

Additional observations from a re-analysis of the deposited data

Results flagged for a closer look

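A scan of the 52 members with a counting interval, not made over all genes, asked for intervals on opposite sides of 1 between lines. It flagged only KIF23, a kinesin of cytokinesis, with bounds close to 1. Its RPKM ratio of ODC1 to NC siRNA was 1.06 in Huh7 (95% counting interval 1.01 to 1.13) and 0.919 in Huh1 (0.854 to 0.9902). The log2 fold change in Huh7 exceeded that in Huh1 by 0.207. With 1 library per group this difference was not tested.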

How the results depend on the processing

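None of the class medians, calls or genes named by the rule changed sign under the settings tried. The all-gene median in Huh1 did, from 0.02 to -0.002 with quantile normalization, where 50.5% of all genes lay below 0 against 45%. Among the other members, values near 0 did: the line difference of MCM7 ran between -0.03 and 0.07, and the log2 fold change of RFC2 over both lines between -0.01 and 0.001. Replication genes above 0 between the lines with ODC1 siRNA numbered 19, against 16 with upper quartile scaling and 17 with quantile normalization. Calls for the ODC1 siRNA effect stayed at 0 in each class except for 1 replication gene lower with upper quartile scaling (GMNN, limma adjusted p = 0.0435) and 1 mitosis gene lower with a trend on counting variance (MKI67, limma adjusted p = 0.0373). Over all genes the fit called 181 higher and 74 lower, against 286 and 193 with upper quartile scaling, 225 and 99 with a trend on counting variance, 81 and 27 with a filter at 5 RPKM, 43 and 11 with a pseudocount of 0.1 RPKM, and 40 and 12 with quantile normalization. It called 0 with no filter, without trend, or with no line term (no replicate block), where 2040, 1830 and 22 genes had an unadjusted p under 0.05; in the fit without the block the log2 fold changes were the same and the adjusted p of ODC1, POLD4 and CCNE1 was 1.00. The labels give no replicate numbers, and the line is the only pairing. POLD4 and CCNE1 kept their calls only with upper quartile scaling (adjusted p otherwise between 0.0657 and 1.00), with which LIG1 (0.0402) and RB1 (0.0435) also passed, and ODC1 lost its call under 3 settings. A rule of a log2 fold change of 0.32 in place of 1.5-fold counted 1 of 54 members higher and 6 lower in Huh7. Over all 11416 genes it counted 1258 higher and 1340 lower, so the members lower lay near the background. With a pseudocount of 0.1 RPKM the 1.5-fold rule counted 1 member higher in Huh7 (BIRC5), against 499 of all genes. The median log2 fold change of the mitosis genes with quantile normalization was -0.140 in Huh7 and -0.114 over both lines. Without a library the siRNA effect rests on the other line, and medians over both lines ran between -0.154 and -0.0707 for replication and between -0.118 and -0.0975 for mitosis genes. Between the lines, quantile normalization moved the median of all genes to 0.02, a shift of over 0.1, and upper quartile scaling to 0.04. The replication median was then 0.161 with ODC1 siRNA, 0.280 with NC siRNA and 0.192 over both under upper quartile scaling, and 0.162 with ODC1 siRNA under quantile normalization. The mitosis median with ODC1 siRNA, with NC siRNA and over both was 0.730, 0.711 and 0.709 under upper quartile scaling, 0.7499, 0.728 and 0.740 under quantile normalization, and 0.866, 0.831 and 0.822 with a pseudocount of 0.1 RPKM. Line calls ran between 12 and 16 higher and 5 and 6 lower for replication genes, and between 24 and 28 higher and 0 lower for mitosis genes. Of 52 counting intervals, 31 lay below 1 and 5 above in Huh7, and 19 lay below and 1 above in Huh1. The rest held 1, and whether limited depth or a small difference lies behind this was not tested. All members are limited by 1 library per group.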
